A study of Mus musculus with 22 samples.

Results

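The replication-dependent histone cluster genes are the gene copies that encode the core histones H2A, H2B, H3 and H4 and the linker histone H1 for DNA replication. Members were taken as every gene symbol that starts with Hist1h, Hist2h, Hist3h or Hist4h, leaving out 1 symbol marked as a pseudogene (Hist3h2bb-ps). This gave 68 of the 24982 genes in the files: 6 of H1, 19 of H2A, 18 of H2B, 12 of H3 and 13 of H4. By cluster, 55 belong to Hist1 on chromosome 13, 10 to Hist2 on chromosome 3, 2 to Hist3 on chromosome 11 and 1 (Hist4h4) to chromosome 6. Hist1h2al, counted among the H2A and Hist1 genes by its symbol, is annotated in GENCODE as a processed pseudogene. It lies away from the other Hist1 genes (chr13:51202727-51203065). They were followed through 22 RNA sequencing libraries of eosinophils sorted from mouse bone marrow at 4 maturation stages, I to IV. The mice were wild-type C57BL6 animals, and every group, controls included, received 400 ng recombinant IL-33 intraperitoneally each day for 7 days, so no library shows marrow without IL-33. IL-33 is a cytokine that expands eosinophils. With the last of these doses began 3 daily injections of 400 µg of either an antibody that neutralizes IL-5, the main growth and survival factor of eosinophils, or an isotype control antibody. The 8 groups are thus stages I, II, III and IV under isotype control and the same stages under anti-IL5, with 3 libraries each except stage II, which has 2 under either antibody.

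Cells that carry the lineage antigens CD45R, NK1.1, CD90.2 or Ly6G were removed, and the stages were sorted at a purity of 95% or more by CD117 (Kit), CD200R3, Pir-A/B, CD55 and CD29 together with Siglec-F and F4/80. The labels give neither an age for the mice nor whether libraries of a group came from separate mice, so p-values measure the spread between these samples, which may in part be technical. Libraries held 7161264 to 14781250 counts on genes. Values are given as CPM, that is, a gene's counts scaled to 1000000 counts on genes in its library. Eosinophil genes stood high at every stage but were lowest at stage IV. Of the 12 listed markers 11 are in the files, and their summed level ran from 8535 to 69927 CPM over the libraries. It was 54060 to 58917 CPM at isotype stage I and 9901 to 11237 at stage IV. Under anti-IL5 it was 53551 to 62306 and 8535 to 9117. Summed markers of other marrow cells ran from 3152 to 12806 CPM for neutrophils, 148 to 4127 for basophils and mast cells, 1041 to 3844 for monocytes and macrophages, 81 to 1439 for megakaryocytes and 3 to 1427 for T, NK and innate lymphoid cells, and stayed at or under 234 for erythroid and 68 for B lineage genes.

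Canonical histone genes lie in clusters, lack introns and are copied into mRNA almost only while DNA is being replicated. Their mRNAs are the only known animal mRNAs that normally end in a conserved stem-loop in place of a poly(A) tail. The stem-loop binding protein (Slbp) holds that hairpin through processing and translation, and the coactivator Npat drives transcription of the clusters as cells enter S phase. When replication stops the mRNAs are quickly degraded. Some cluster genes can also give polyadenylated mRNAs from sites beyond the stem-loop, a form described in differentiating and resting cells. In the marrow, dividing eosinophil progenitors give way to non-dividing mature cells. No measure of division is given for the sorted stages I to IV. The libraries were made with SMART-Seq v4, which copies RNA into cDNA from an oligo(dT) primer, so the values below count mainly RNA that carries a run of A. The part this played in the level of any member was not tested.

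The hairpins are shown because they define how these mRNAs end. In the GENCODE release 21 mouse transcripts (GRCm38), a stem-loop of the form GGNNCTNTTNAGNNCC, searched on the transcript strand, was found in 44 of the 68 members and in 270 of 141691 transcripts of other genes (0.191%). The 6 sequences found follow, 5′ to 3′, with the paired stem bases in capitals and the loop in lower case.
26 members of H1, H2A, H2B and H3: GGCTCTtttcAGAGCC
6 members of H1, H2B and H3: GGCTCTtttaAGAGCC
1 member of H2A: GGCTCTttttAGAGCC
7 members of H4: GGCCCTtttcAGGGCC
2 members of H4: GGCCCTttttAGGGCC
2 members of H4: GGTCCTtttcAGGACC
No H4 member held the GGCTCT stem, and no member of another class held an H4 stem. For the 24 members without a match, including Hist1h1a and Hist1h1b, the annotated model holds no such letters, which says nothing about the mRNA in these cells.

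The upstream regions printed next belong to members on which the results turn: Hist1h1c, the only tested member not called lower at stage IV than at stage I under either antibody, Hist1h1b, an H1 gene at about 1% of its stage I level by stage IV, and Hist1h2bj, an H2B gene whose upstream region it shares with Hist1h2ag. Each is the 250 bases before the RefSeq start (GRCm38.p6), read along the gene's strand. Capitals mark the TATA box TATAAA, the CCAAT box, the H1 box AAACACA and the octamer motif ATTTGCAT, searched on both strands, so that a CCAAT box on the other strand reads ATTGG.
Hist1h1c, chr13:23738557-23738806, plus strand: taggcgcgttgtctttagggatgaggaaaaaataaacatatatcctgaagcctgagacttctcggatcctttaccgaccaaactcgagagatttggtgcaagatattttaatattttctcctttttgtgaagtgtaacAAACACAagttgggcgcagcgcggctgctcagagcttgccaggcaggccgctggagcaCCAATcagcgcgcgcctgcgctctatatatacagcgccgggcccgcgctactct
Hist1h1b, chr13:21780626-21780875, minus strand: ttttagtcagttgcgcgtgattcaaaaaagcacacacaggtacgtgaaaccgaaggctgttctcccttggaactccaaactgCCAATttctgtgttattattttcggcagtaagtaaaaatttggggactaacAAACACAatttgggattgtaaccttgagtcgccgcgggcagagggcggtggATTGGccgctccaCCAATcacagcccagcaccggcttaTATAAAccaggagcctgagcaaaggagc
Hist1h2bj, chr13:22042948-22043197, plus strand: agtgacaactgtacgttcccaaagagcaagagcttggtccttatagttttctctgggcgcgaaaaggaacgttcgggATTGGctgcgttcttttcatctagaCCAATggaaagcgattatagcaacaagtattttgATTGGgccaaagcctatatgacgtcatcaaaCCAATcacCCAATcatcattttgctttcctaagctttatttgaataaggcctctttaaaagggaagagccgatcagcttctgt
The H1 box and a CCAAT box were found in both H1 stretches, a TATA box in that of Hist1h1b, and CCAAT boxes alone in that of Hist1h2bj. RefSeq start regions from 250 bases before to 50 after the start were matched for 61 of the 68 members, and no occurrences of these motifs overlapped in them. CCAAT was found in 85.2% of the members' regions against 37.9% of all 27025 regions, and TATAAA in 57.4% against 14.2%. The octamer was found in 13 members (7 of H2A and 6 of H2B), 21.3% against 1.75%, and the H1 box in 9 members, 14.8% against 7.14%, among them 5 of the 6 H1 genes. CCAAT was present in every matched H1, H2A, H2B and H3 region but in only 3 of 12 for H4. These matches describe the letters, not sites of binding.

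Expression was broad at the early stages. Of the 68 members, 56 reached 1 CPM in at least 1 library, and 24 did so in all 22. By class, 6 of 6 H1, 13 of 19 H2A, 15 of 18 H2B, 10 of 12 H3 and 12 of 13 H4 genes reached 1 CPM. Hist1h1t, the linker histone known from testis, is among the 56 through 1 library only, at 1.15 CPM. No count at all was found for 7 members (Hist1h2bq, Hist1h2ap, Hist1h2br, Hist1h2ba, Hist2h2aa1, Hist2h3c1 and Hist2h3c2). Another 5 had counts but never 1 CPM (Hist1h2al, Hist2h2aa2, Hist1h2ao, Hist1h4m and Hist1h2aa). A count of 0 allows up to 3 counts, or 0.203 to 0.419 CPM by library, and covers counting error only.

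Many members are near-identical copies, and in the median member 49.6% of 50-base windows also occur in another gene, so counting may have split or dropped their reads. For Hist2h3c1 and Hist2h2aa2 every window does. The model of Hist1h2be also overlaps that of Hist1h1e on the same strand, so values of this pair are uncertain. A filter on low counts over the 8 groups kept 12387 genes for testing, with 55 members among them. The other 13, Hist1h1t and the 12 that never reached 1 CPM, were not tested.

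The 12 most abundant members held 58.8% of the members' summed CPM. Hist1h1c led with a mean of 140.6 CPM over the 22 libraries, followed by the H1 genes Hist1h1b (107.9) and Hist1h1e (97.8). The H2B genes Hist1h2bg (87.7), Hist2h2be (77.1), Hist1h2bc (69.2) and Hist1h2bj (65.0) and the H2A genes Hist1h2ae (81.7), Hist1h2ac (68.7) and Hist1h2an (52.8) came next, with the H1 gene Hist1h1d at 54.2 and the H4 gene Hist1h4c at 43.1. Per kilobase of annotated exon the order in isotype stage II was different. Hist1h1b led there at 358.8 CPM per kb, before Hist1h2bj (328.5) and Hist1h2an (296.3), while Hist1h1c stood at 96.4. At isotype stage IV Hist1h1c led at 88.6 CPM per kb, before Hist1h2bg at 36.4 and Hist1h2bc at 29.3, and Hist1h1b was at 2.04.

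Summed over the 68 members, the isotype libraries held 1827, 2106 and 2518 CPM at stage I, 2493 and 3484 at stage II, 691, 658 and 1304 at stage III, and 369.6, 364 and 349.6 at stage IV. Under anti-IL5 the sums were 3488, 2970.1 and 2377 at stage I, 3215 and 4049 at stage II, 820.5, 614 and 516 at stage III, and 390.4, 421 and 339.7 at stage IV. Under both antibodies all stage I and II sums lay above all stage III sums, and these above all stage IV sums. Between antibodies the sums overlapped at every stage. Means ± SD in isotype libraries were 2151 ± 348 (n = 3), 2988 ± 701 (n = 2), 884 ± 364 (n = 3) and 361 ± 10.3 CPM (n = 3) from stage I to IV. Under anti-IL5 they were 2945 ± 556 (n = 3), 3632 ± 589 (n = 2), 650.2 ± 155 (n = 3) and 384 ± 41.2 CPM (n = 3). The mean at stage II was 3.38 times that at stage III under isotype and 5.59 times under anti-IL5, and that at stage III was 2.45 and 1.69 times that at stage IV. In sorted bulk samples, fewer cells of a type and less RNA per cell cannot be told apart.

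**Figure D1:**
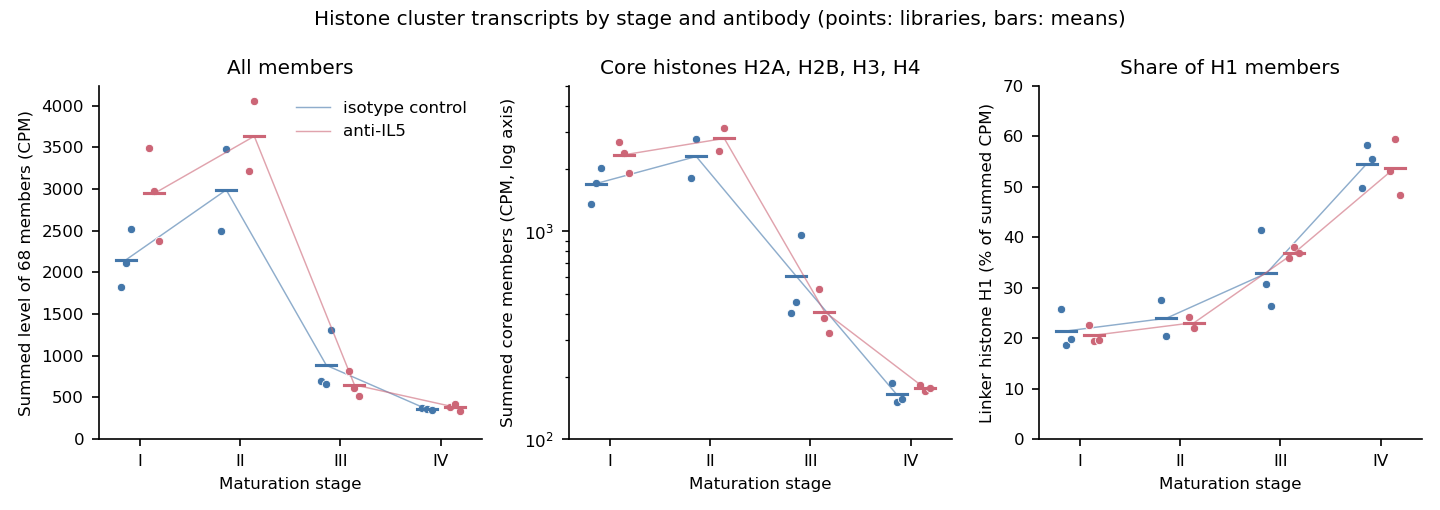
The left panel shows the summed CPM of the 68 members by stage, the middle panel that of the core histones alone on a log axis and the right panel the percent of the sum that is H1, with 1 point per library, bars at group means and lines joining the means of isotype (blue) and anti-IL5 (red). In the left panel isotype means run 2151, 2988, 884 and 361 CPM and anti-IL5 means 2945, 3632, 650.2 and 384, and isotype stage III replicate 3 stands apart at 1304.

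The number of members with a group mean of at least 1 CPM was 55 at stages I and II under either antibody. It was 50 at stage III and 31 at stage IV under isotype, and 47 and 29 under anti-IL5. The composition shifted as the sum fell. H1 genes made up 21.4% ± 3.86 (SD, n = 3) of the summed CPM at isotype stage I, 23.9% ± 5.03 (n = 2) at stage II, 32.9% ± 7.81 (n = 3) at stage III and 54.5% ± 4.42 (n = 3) at stage IV. The same shares under anti-IL5 were 20.6% ± 1.84, 23.1% ± 1.48, 36.9% ± 1.07 and 53.7% ± 5.56. H2B went from 34.3% to 21.4% and H2A from 25.0% to 12.5% between isotype stages I and IV, and H3 from 7.45% to 3.79%. Hist1h1c alone made up 6.41% of the sum at isotype stage I and 38.4% at stage IV, and 5.03% and 30.8% under anti-IL5.

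**Figure D2:**
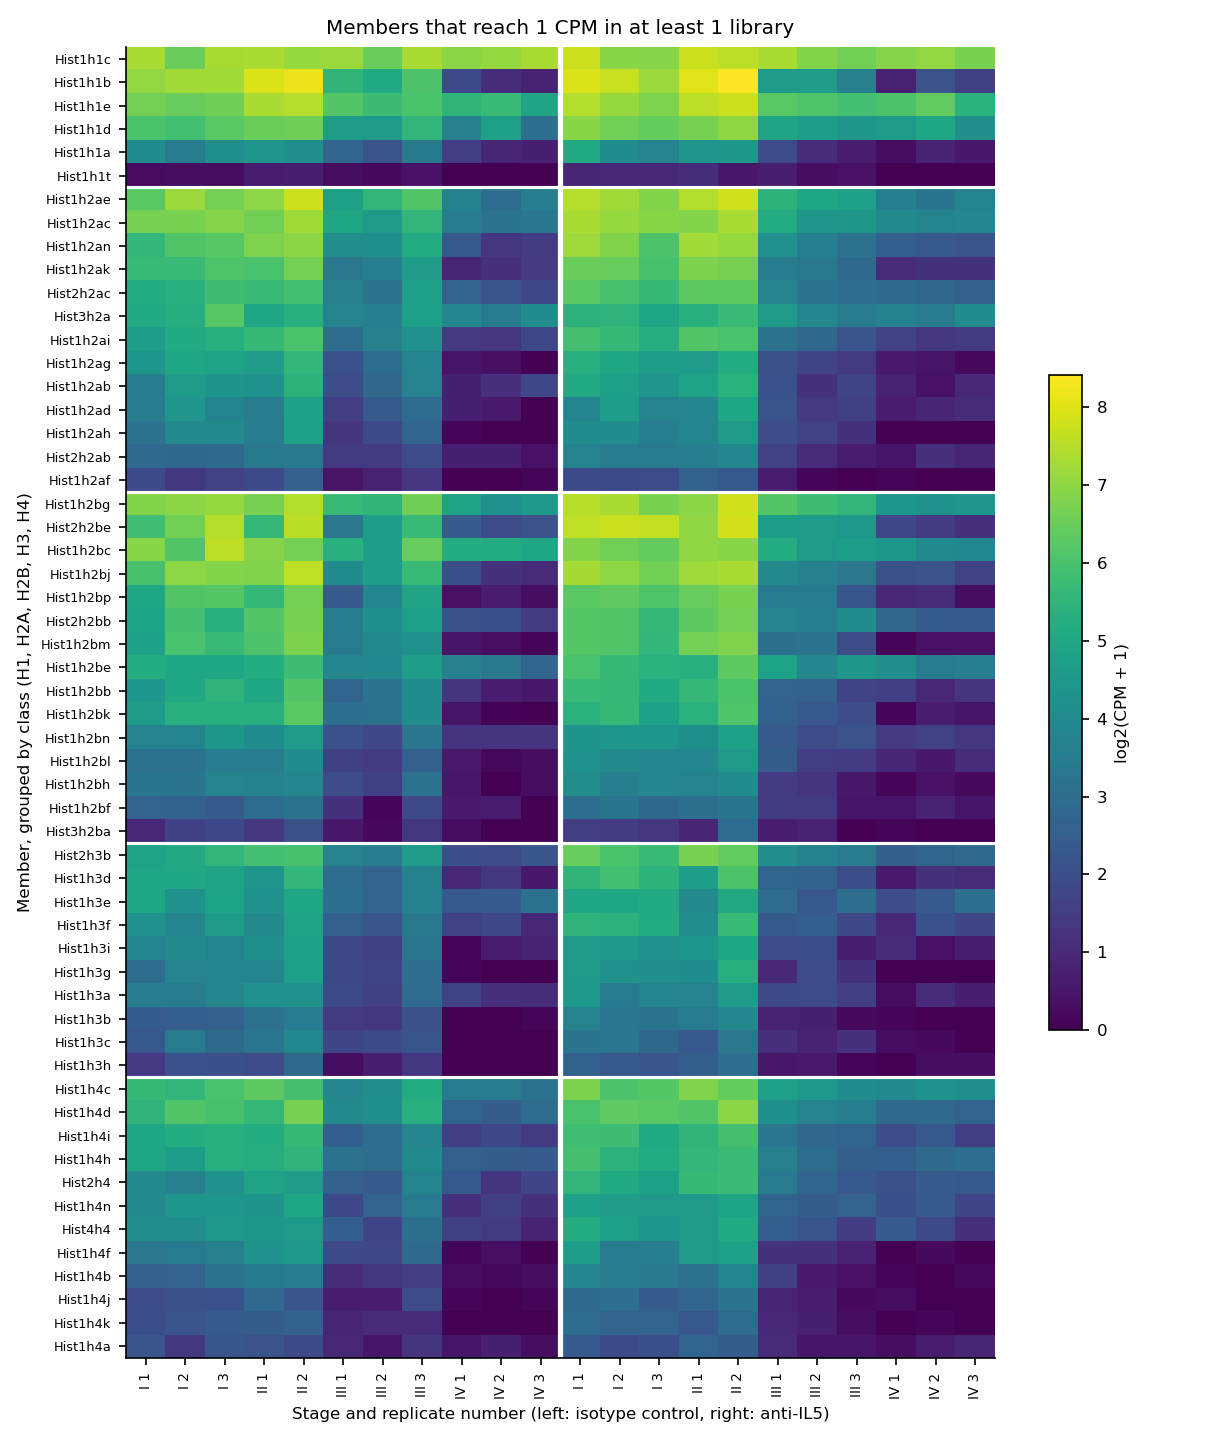
Levels (colour) of the 56 members that reached 1 CPM in at least 1 library (y axis, by histone class) in the 22 libraries (x axis, by antibody and stage), as log2(CPM + 1). Most members are bright at stages I and II and dark at stage IV, while Hist1h1c lies between 88.4 and 214 CPM in every library.

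From stage I to stage II the changes were small and upward. Under isotype, Hist1h1e, a linker histone, and Hist2h2bb, an H2B gene, rose. Hist1h1e read 101, 86.1 and 95.6 CPM at stage I and 163 and 176 at stage II, with no overlap between the stages. The log2 difference was 0.98 (SE 0.24, edgeR quasi-likelihood test, adjusted p = 0.0111). Hist2h2bb read 28.6, 59.8 and 38.6 CPM at stage I and 70.5 and 102 at stage II, again apart (log2 1.14, SE 0.31, edgeR adjusted p = 0.0221). These 2 of 55 tested members stand beside 7.39% of all tested genes called higher. The median member difference was 0.64, with 53 of 55 above 0, and 22 members were higher in every stage II library than in any stage I library, against 14.4% of all tested genes. With the replicate number as a block, 11 members were called higher. The share of all tested genes called under the block is not given here. The Hist2h2bb call was lost in 4 of the 5 fits that left out 1 library, without stage I replicate 1 (edgeR adjusted p = 0.101), stage I replicate 3 (0.0736), stage II replicate 1 (0.0610) or stage II replicate 2 (0.112). The Hist1h1e call was lost without stage II replicate 1 (0.0924).

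Under anti-IL5 no member was called between stages I and II by edgeR, with 4 at an unadjusted p under 0.05 and 1 called by DESeq2, beside 12.4% of all tested genes called in either direction. Without anti-IL5 stage I replicate 1 it was 2. The median member difference was 0.44. Hist1h1e read 172, 138 and 109 CPM at stage I and 188 and 215 at stage II (log2 0.69, SE 0.24, edgeR adjusted p = 0.0625). Its groups did not overlap. The test of whether the step itself differed between antibodies called 0 members (0 at an unadjusted p under 0.05, 0 by DESeq2), beside 0% of all tested genes.

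From stage II to stage III nearly every member fell. Under isotype 48 of 55 members were called lower and 0 higher, against 18.0% of all tested genes called lower, and the median log2 difference was -1.89. By class these were 4 of 5 H1, 11 of 13 H2A, 13 of 15 H2B, all 10 H3 and 10 of 12 H4 genes. Under anti-IL5 53 of 55 were called lower, against 19.7% of all tested genes, with a median of -2.85. The H2A gene Hist1h2ak read 62.8 and 98.9 CPM at isotype stage II and 9.11, 11.1 and 23.7 at stage III. Under anti-IL5 it read 106 and 101, then 10.6, 9.35 and 6.44. The stages were far apart under both antibodies, with log2 differences of -2.28 (SE 0.31, edgeR adjusted p = 9.94e-06) and -3.35 (SE 0.31, edgeR adjusted p = 8.87e-08).

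The H1 gene Hist1h1b read 249 and 284 CPM at isotype stage II and 44.2, 33.6 and 66.4 at stage III. Under anti-IL5 it read 254 and 340.0, then 22.8, 23.9 and 11.7, a log2 difference of -3.71 (SE 0.37, edgeR adjusted p = 2.04e-07). Stage III thus lay below stage II in every library, and the anti-IL5 stage III libraries were all below the isotype ones. Hist1h2ac and Hist2h2bb were the other members of smallest p under isotype, with log2 differences of -1.72 and -2.04, and Hist1h2bm, an H2B gene, under anti-IL5 with -3.88. Members not called lower under isotype were Hist1h1c (-0.05), Hist3h2a (-0.85), Hist1h2bc (-0.94), Hist1h4j (-1.74), Hist1h4a (-1.58), Hist1h2af (-1.95) and Hist3h2ba (-1.50). Under anti-IL5 they were Hist1h1c (-0.47) and Hist3h2ba (-2.83, edgeR adjusted p = 0.0506).

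The fall went on from stage III to stage IV. Under isotype 46 of 55 members were called lower, against 18.8% of all tested genes, with a median log2 difference of -2.61. Under anti-IL5 31 were called lower, against 13.4% of all tested genes, with a median of -1.54. Both steps share the stage III libraries with the step before. Hist1h2bm read 9.71, 15.0 and 18.8 CPM at isotype stage III and 0.378, 0.271 and 0.0823 at stage IV (log2 -5.71, SE 0.52, edgeR adjusted p = 2.55e-08). Under anti-IL5 it read 7.63, 8.16 and 2.86, then 0.101, 0.318 and 0.319 (log2 -4.50, SE 0.55, edgeR adjusted p = 2.93e-06). At stage IV it was thus near the level of 3 counts. The log2 differences under isotype and anti-IL5 were -4.87 and -3.17 for Hist1h1b, and -3.46 and -2.76 for Hist1h2ak. Whether this step differed between antibodies was tested: no member was called by edgeR (14 with a positive difference at an unadjusted p under 0.05), beside 0.638% of all tested genes. DESeq2 called 1, Hist1h2bj (log2 1.94 in edgeR, SE 0.59, edgeR adjusted p = 0.154).

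Between the ends of the series, stage IV against stage I, 54 of 55 members were called lower under isotype and 54 of 55 under anti-IL5, against 33.9% and 32.8% of all tested genes. The member left out in both was Hist1h1c. Median log2 differences were -3.64 and -4.04, also with members that had no count set to their bound. By class the isotype medians were -1.71 for H1, -3.70 for H2A, -4.43 for H2B, -4.42 for H3 and -3.18 for H4, and the anti-IL5 medians -1.70, -4.29, -4.54, -4.37 and -3.04. Some members had no count at stage IV, and their folds are bounds set by 3 counts over the group. Among isotype libraries the H3 gene Hist1h3c was at least 88.1-fold lower, Hist1h4k at least 49.0-fold and Hist1h3h at least 35.3-fold. Under anti-IL5 Hist1h3g was at least 224-fold lower and Hist1h2ah at least 168-fold.

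Eosinophil markers and most marker lists of other marrow cells fell over the same stages, while the summed monocyte and macrophage markers rose. Of all tested genes, 33.9% under isotype and 32.8% under anti-IL5 were called lower at stage IV than at stage I. Basophil and mast cell markers summed to 3305 to 4127 CPM at isotype stage I, 1608 to 2113 at stage II, 1021 to 1690 at stage III and 154 to 166 at stage IV, and 7 of 8 tested genes were called lower at stage IV than at stage I. Under anti-IL5 these sums were 2292 to 3720, 1080.0 to 1262, 506 to 593 and 148 to 162, and 8 of 8 were called lower. T, NK and innate lymphoid markers, nearly all Nkg7, went from 1085 to 1427 CPM at isotype stage I to 4 to 6 at stage IV, and from 870.4 to 1214 down to 3 to 8 under anti-IL5. Megakaryocyte markers, nearly all Itga2b, went from 916 to 1295 down to 129 to 146 under isotype (3 of 4 lower), and from 948 to 1439 down to 81 to 121 under anti-IL5 (2 of 4 lower). Neutrophil markers summed to 6183 to 8371 CPM at isotype stage I and 3152 to 3924 at stage IV (10 of 13 lower, 1 higher). Under anti-IL5 they summed to 3219 to 12806 and 4934 to 5733 (9 lower, 1 higher). Monocyte and macrophage markers summed to 1041 to 1455 CPM at isotype stage I and 3174 to 3844 at stage IV. The same sums under anti-IL5 were 1205 to 1311 and 2976 to 3039. In this list 2 genes were higher and 1 lower of 11 under either antibody. The part of these cells or of their shared genes in the fall of the members was not tested.

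The H1 genes differed widely among themselves, from 0.45 for Hist1h1c to -6.15 for Hist1h1b under isotype. Hist1h1c (GRCm38 chr13:23738808-23740367, plus strand) encodes a linker histone found in most somatic cells. It read 159, 88.4 and 159.7 CPM at isotype stage I, 162 and 139 at stage II, 142, 88.8 and 156 at stage III and 123, 135 and 156 at stage IV. Under anti-IL5 it read 214, 120.2 and 117, then 211 and 189.6, then 163, 116 and 97.7, and 118, 133 and 104. Under isotype all stages overlapped, and under anti-IL5 both stage II libraries lay above all those of stages III and IV. Stage IV against stage I gave a log2 difference of 0.45 (SE 0.25, edgeR adjusted p = 0.126) under isotype and 0.07 (SE 0.25, adjusted p = 0.829) under anti-IL5, where the sign turned with the scaling (-0.34 without normalization beyond total counts). In plain CPM its stage IV mean was 102% and 78.8% of its stage I mean.

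Hist1h1b (chr13:21779883-21780625, minus strand), another linker histone, read 133, 151 and 151 CPM at isotype stage I and 2.72, 1.08 and 0.741 at stage IV. Under anti-IL5 it read 251, 206 and 142, then 0.710, 3.42 and 1.99. In plain CPM stage IV stood near 1% of stage I under both, at 1.05% and 1.02%. The log2 difference was -6.15 under isotype (SE 0.43, edgeR adjusted p = 9.05e-11) and -6.15 under anti-IL5 (SE 0.43, adjusted p = 1.03e-10). Hist1h1e (chr13:23620629-23622558, minus strand) fell far less, from 101, 86.1 and 95.6 CPM to 44.4, 49.5 and 29.1 under isotype (log2 -0.78, SE 0.22, edgeR adjusted p = 0.00374). Under anti-IL5 its stage IV libraries read 65.8, 83.6 and 40.8 CPM (log2 -0.72, SE 0.22, adjusted p = 0.00679). All its stage IV libraries lay below those of stage I, at 43.6% and 45.4% of the mean in plain CPM. The anti-IL5 call was lost without stage I replicate 1 (edgeR adjusted p = 0.0589) or stage IV replicate 3 (0.0537). Hist1h1d fell by 1.71 and 1.70 on the log2 scale, and in plain CPM to 22.9% and 23.1% of its stage I mean.

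In plain CPM only a few core histone genes kept a sizeable share. The median tested member stood at 5.96% of its stage I mean in isotype stage IV and at 4.39% under anti-IL5. Of the 55, 13 stood at 10% or more under either antibody. The log2 differences use TMM scaling instead, on which stage IV stands higher against stage I and more members pass 10%. These shares and their count thus depend on the scaling. Besides H1 genes, the highest shares among tested members in isotype libraries were those of Hist1h2be (27.9%), Hist3h2a (27.7%), Hist1h2bc (26.9%), the H3 gene Hist1h3e (21.4%) and Hist1h2bg (18.1%). Hist3h2a, an H2A gene, read 34.3, 36.7 and 74.5 CPM at isotype stage I and 13.7, 10.3 and 16.2 at stage IV. Its decline was called under isotype (log2 -1.45, SE 0.35, edgeR adjusted p = 9.05e-04) and under anti-IL5 (log2 -1.19, SE 0.35, adjusted p = 0.00508). Hist1h2bc, an H2B gene, read 119, 68.7 and 189.9 CPM at isotype stage I and 36.2, 35.5 and 30.0 at stage IV. At the low end, Hist1h2ak stood at 2.19% and 1.56% and Hist1h2bm at 0.524% and 0.391% of stage I. Hist2h2be, an abundant H2B gene at stage I, fell by 4.55 and 6.38 on the log2 scale.

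**Figure D3:**
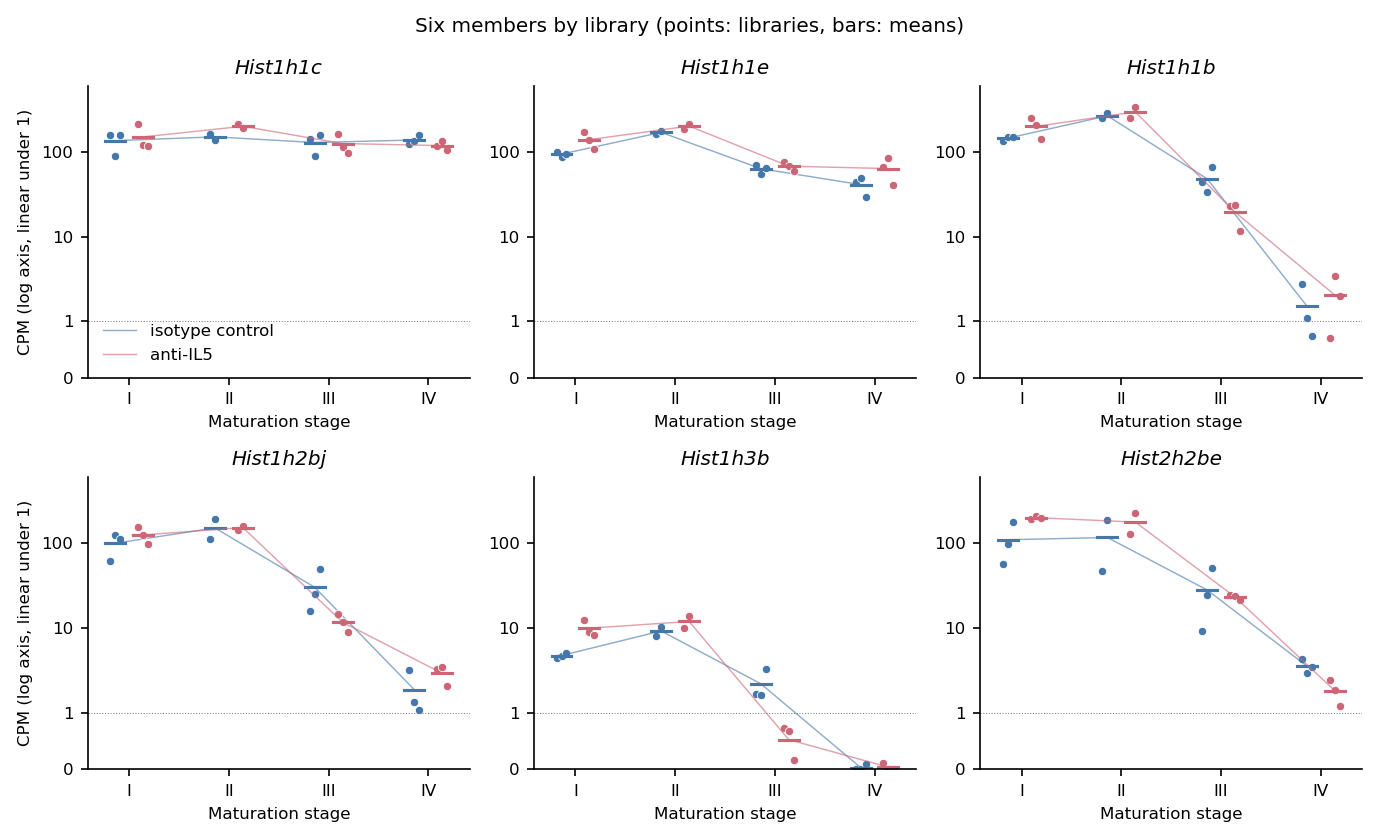
CPM of 6 members by stage (x axis) on a y axis that is log above 1 CPM and linear below, with 1 point per library, bars at group means and lines joining the means of isotype (blue) and anti-IL5 (red). Hist1h1c stays between 88.4 and 214 CPM, Hist1h1e declines to 43.6% of stage I in isotype libraries, and Hist1h1b falls to 1.05%.

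The annotated transcripts place members with longer annotated ends among those that fell less. Of the 44 members with a stem-loop, 22 have a transcript that runs 100 bases or more beyond it, and 19 of these were tested. Their median log2 difference of stage IV from stage I was -2.91 under either antibody. The 17 tested members whose models end within 100 bases of the stem-loop had medians of -4.82 under isotype and -5.02 under anti-IL5, and the 19 tested members with no stem-loop match -4.38 and -4.36. The models of Hist1h1c run 840 bases beyond the stem-loop, of Hist1h1e 1153, of Hist3h2a 1643 and of Hist1h1d 4884, and those of Hist1h2bm and Hist1h2bj 46 and 23. There were exceptions: Hist1h2bh, with 1214 bases, differed by -4.97 under isotype, and Hist1h4j, with 385, by -5.31. The division at 100 bases was chosen with the values known, so no test is given, and whether RNA of these cells reaches the annotated ends cannot be read from counts per gene.

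**Figure D4:**
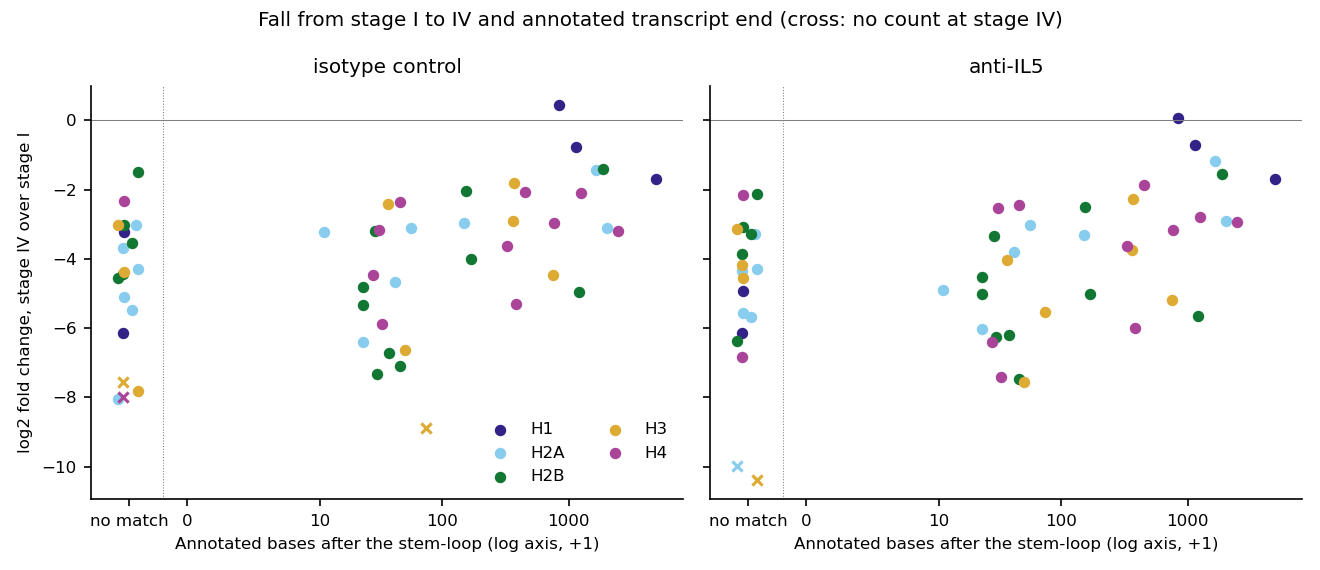
Annotated bases after the stem-loop (x axis, log scale of bases + 1) against the log2 difference of stage IV from stage I (y axis) for tested members, in a panel per antibody. Points are members by class, those without a stem-loop match stand at the left, and crosses mark members with no count at stage IV. Members with 100 bases or more had a median of -2.91, those with fewer -4.82 under isotype and -5.02 under anti-IL5.

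Anti-IL5 was compared with isotype at each stage to ask what neutralizing IL-5 did to the same sorted population. At stage I no member was called by edgeR (8 at an unadjusted p under 0.05, all higher), beside 4.42% of all tested genes, and DESeq2 called 2 higher. Without isotype replicate 3, or without anti-IL5 replicate 3, 1 was called. For DESeq2 and these fits no share of all tested genes is given. The direction was nearly uniform: 52 of 55 members were above 0, with a median log2 difference of 0.53 (0.02 over all tested genes). Members are read from the same libraries, so here and below the number above or below 0 is not a number of replicates. The members' summed CPM overlapped between antibodies, at 1827 to 2518 under isotype and 2377 to 3488 under anti-IL5. In 21 tested members every anti-IL5 library was above every isotype library, against 13.5% of all tested genes, and 0 were apart in the other direction, against 14.8%. Hist2h3b, an H3 gene, read 27.6, 32.7 and 45.1 CPM under isotype and 86.3, 64.4 and 49.6 under anti-IL5. Its groups were apart, and the test just missed the threshold (log2 0.94, SE 0.27, edgeR adjusted p = 0.0501). The H4 gene Hist2h4 read 14.5, 11.7 and 18.3, and 45.9, 33.6 and 25.8 (log2 1.25, SE 0.39, edgeR adjusted p = 0.0673), also apart.

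At stage II, 49 of 55 members were above 0 with a median of 0.34, and none was called (1 at an unadjusted p under 0.05, 0 by DESeq2), beside 1.75% of all tested genes. Both anti-IL5 libraries lay above both isotype libraries in 16 tested members, against 13.7% of all tested genes. Hist2h4 read 27.9 and 24.1 CPM under isotype and 49.0 and 52.6 under anti-IL5 (log2 1.01, SE 0.47, edgeR adjusted p = 0.346). With 2 libraries per group the spread is borrowed from the other stages.

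At stage III the direction was opposite. Members called lower under anti-IL5 numbered 5 of 55, against 5.05% of all tested genes called lower, and 0 were called higher, against 1.32%. They were the H1 genes Hist1h1a and Hist1h1b, the H2A gene Hist1h2ag, the H2B gene Hist1h2bj and the H3 gene Hist1h3b. In all, 50 of 55 members were below 0, with a median log2 difference of -0.65 (-0.01 over all tested genes). At an unadjusted p under 0.05, 19 were lower, and no share of all tested genes at that threshold is given here. Class medians were -0.22 for H1, -0.68 for H2A, -0.65 for H2B, -0.85 for H3 and -0.46 for H4. In 11 members every anti-IL5 library was below every isotype library, against 17.6% of all tested genes, so this count is near the background, and 0 were apart the other way, against 8.53%.

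Hist1h1a (chr13:23763666-23764406, plus strand) read 5.75, 3.52 and 9.67 CPM under isotype and 2.91, 1.10 and 0.557 under anti-IL5 (log2 -1.98, SE 0.54, edgeR adjusted p = 0.0293). Hist1h1b read 44.2, 33.6 and 66.4, and 22.8, 23.9 and 11.7 (log2 -1.22, SE 0.33, adjusted p = 0.0313). Hist1h3b (chr13:23752267-23752886, plus strand) read 1.68, 1.60 and 3.30, and 0.727, 0.680 and 0.159 (log2 -1.98, SE 0.55, adjusted p = 0.0356). In all 3 the groups were apart, and the highest value was that of isotype replicate 3. The lowest value of Hist1h3b, 0.159, lies under the level of 3 counts in anti-IL5 replicate 3 (0.239 CPM).

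Hist1h2ag (chr13:22042460-22042944, minus strand) and Hist1h2bj (chr13:22043214-22043676, plus strand) are neighbours that run away from each other from starts 270 bases apart, and the sequence printed for Hist1h2bj lies in the stretch between them. This is 1 of 12 such H2A and H2B pairs among the members. Hist1h2ag read 3.36, 6.88 and 12.8 CPM under isotype and 3.27, 2.21 and 1.67 under anti-IL5 (log2 -1.61, SE 0.44, edgeR adjusted p = 0.0306). Hist1h2bj read 15.9, 25.5 and 49.4, and 14.5, 11.6 and 8.98 (log2 -1.29, SE 0.36, adjusted p = 0.0366). In both, the lowest isotype library was close to the highest anti-IL5 one, and isotype replicate 3 was the highest. Next in order were Hist1h4f (log2 -1.68, edgeR adjusted p = 0.0518), Hist1h2bk (-1.29, 0.0532) and Hist1h2bm (-1.15, 0.0564). Hist1h1e (0.17) and Hist1h2be (0.32) were among the 5 members above 0.

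**Figure D5:**
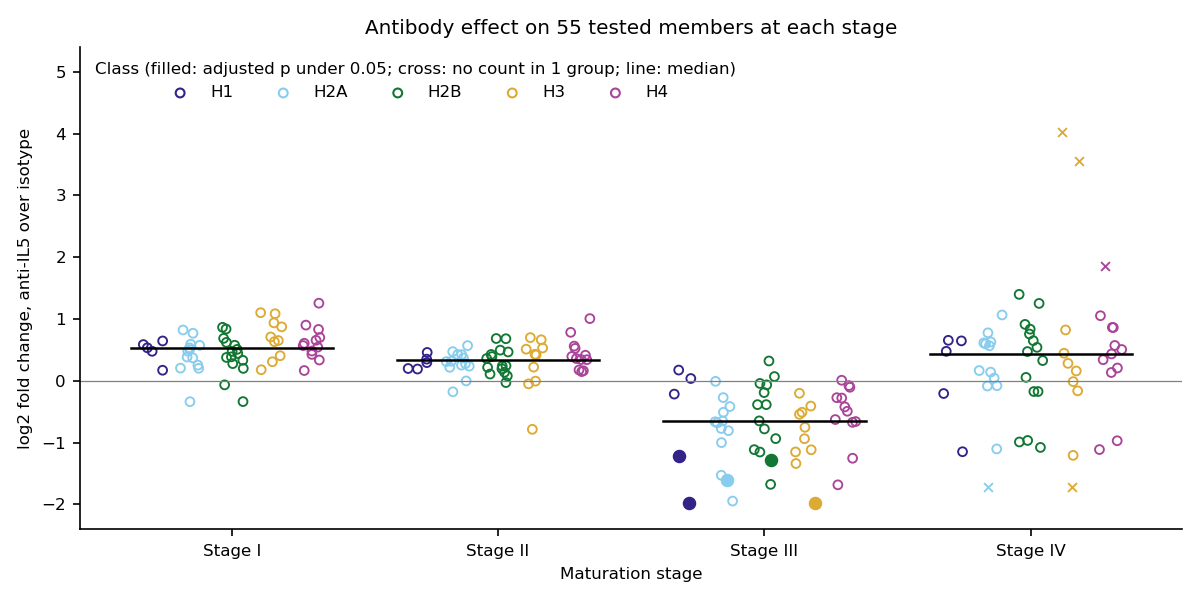
Log2 difference of anti-IL5 from isotype for each tested member (points) at each stage (x axis), coloured by histone class. Lines mark medians, filled points an edgeR adjusted p under 0.05 and crosses members with no count in 1 group. The medians are 0.53 at stage I, 0.34 at stage II, -0.65 at stage III and 0.43 at stage IV.

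The stage III calls rest on single libraries. Without isotype replicate 3, whose member sum was 1304 CPM against 691 and 658 in the others, no member was called by edgeR, the median was -0.12 and 34 of 55 members were below 0 (9 lower at an unadjusted p under 0.05). Log2 differences of the 5 members were then -0.80 for Hist1h2bj to -1.61 for Hist1h3b. Without anti-IL5 replicate 3 again 0 were called, with a median of -0.47, and without anti-IL5 replicate 2 the call was 1, Hist1h1b. Leaving out isotype replicate 2 gave 8 calls. Isotype replicate 3 also read highest for other lists. Summed S phase genes stood at 2068, 2110 and 2640 CPM in the isotype libraries and at 1262, 1163 and 935 under anti-IL5, and G2/M genes at 1622, 1537 and 2308, and 1110, 1351 and 813. Basophil and mast cell markers (11 of 11 in the files) summed to 1259, 1021 and 1690 CPM and to 593, 506 and 525, with Tpsb2 and Tpsab1 at 0. Eosinophil markers summed to 45625, 39292 and 49238, and to 29933, 28551 and 24126, and T, NK and innate lymphoid markers (9 of 10 in the files) to 89, 95 and 231, and 28, 24 and 26, with Cd3e, Thy1, Gata3 and Ncr1 at or near 0. Neutrophil markers went the other way, from 6279, 9298 and 7130 to 9273, 10010 and 11107. The part of any of these in the stage III differences was not tested.

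At stage IV no member was called (unadjusted p under 0.05 for 9 higher and 2 lower members, 0 by DESeq2), beside 1.05% of all tested genes, and 1 was called without anti-IL5 replicate 3. The median was 0.43, or 0.34 with members that had no count set to their bound. Every anti-IL5 library was above every isotype library in 6 members, against 6.42% of all tested genes, and below in 3, against 9.01%. The H4 gene Hist1h4c read 9.74, 10.3 and 7.99 CPM under isotype and 15.2, 18.5 and 16.7 under anti-IL5 (log2 0.86, SE 0.29, edgeR adjusted p = 0.240). Hist1h2bc read 36.2, 35.5 and 30.0, and 21.1, 15.3 and 14.2 (log2 -0.99, SE 0.35, edgeR adjusted p = 0.274). Both were apart in opposite directions, and neither passed the test.

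Whether the antibody effect differed between stages was tested in the same model. For stage III against stage II no member was called (18 with a negative difference at an unadjusted p under 0.05, 0 by DESeq2), beside 0% of all tested genes, and the median difference of log2 effects was -1.07. For stage III against stage I, a contrast added after both effects had been seen, no member was called by edgeR (27 with a negative difference at an unadjusted p under 0.05), beside 0.396% of all tested genes, with a median of -1.15. DESeq2 called 5 there, a count given without its share of all tested genes. Hist1h3b had the smallest p, with an effect of 1.08 at stage I and -1.98 at stage III and a difference of -3.06 (SE 0.73, edgeR adjusted p = 0.0621). For Hist1h1b the difference was -1.70 (SE 0.46, edgeR adjusted p = 0.0955). A different effect at stage III than at stage I was therefore not established for any member by the edgeR test.

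Other histone genes and the factors that handle histone mRNA had medians nearer to 0 over the same stages. Among replacement variants, whose mRNAs are polyadenylated and made outside S phase, 7 of 11 tested genes were lower and 1 higher at isotype stage IV than at stage I. The median of the list was -0.93, and 33.9% of all tested genes were called lower. H3f3a, which encodes H3.3, rose by 0.69 on the log2 scale (SE 0.13, edgeR adjusted p = 1.17e-04) under isotype and by 0.46 (SE 0.13, adjusted p = 0.00523) under anti-IL5. Both rises hold on the TMM scale, and their value without normalization is not given. Without it the median of all genes moved from -0.04 to -0.46 under isotype and from -0.06 to -0.48 under anti-IL5. H3f3b, the other H3.3 gene, differed by -0.10 (SE 0.26, edgeR adjusted p = 0.745). H2afx, the variant known from DNA damage, can be made with a stem-loop or a poly(A) tail and fell by 3.79 (SE 0.23, edgeR adjusted p = 7.36e-12), while H2afz fell by 1.74 and the centromeric Cenpa by 2.16. The linker variant H1f0 differed by -0.44 (SE 0.29, edgeR adjusted p = 0.179) under isotype and fell by 1.43 (SE 0.29, adjusted p = 2.34e-04) under anti-IL5.

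Of 24 tested genes for histone mRNA transcription and processing, 13 were lower and 4 higher at isotype stage IV than at stage I. The median was -0.54, and 33.9% of all tested genes were called lower. Slbp read from 358 to 392 CPM at isotype stage I, from 519.5 to 787 at stage II and from 154 to 202 at stage IV, and fell by 0.62 on the log2 scale between the ends (SE 0.17, edgeR adjusted p = 0.00265). Npat fell by 1.11 (SE 0.41, edgeR adjusted p = 0.0220). The histone chaperones that deposit new histones at the fork fell with the members: the log2 differences were -5.67 for Asf1b, -6.87 for Chaf1a and -3.87 for Chaf1b. In that list of 24, 15 were lower and 2 higher, beside the same 33.9% of all tested genes called lower. All 41 S phase genes were lower at isotype stage IV than at stage I, with a median of -4.52, and 29 of 30 G2/M genes, with a median of -6.09.

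At stage III under anti-IL5, 23 of 41 S phase genes were lower than under isotype, with a median of -0.99. In the G2/M list 3 of 30 were lower, with a median of -0.67, against 5.05% of all tested genes called lower. In these lists the replication helicase gene Mcm3 fell by 1.51 (SE 0.22, edgeR adjusted p = 2.80e-04). Rrm2, a ribonucleotide reductase subunit, fell by 1.30 (SE 0.23, edgeR adjusted p = 0.00181), while Mki67 differed by -0.99 (SE 0.31, edgeR adjusted p = 0.0593). Chaf1b fell by 1.03 and H2afx by 0.89. Of the members' partners, Slbp differed by -0.33 (SE 0.17, edgeR adjusted p = 0.255). At stage I under anti-IL5, where the members' median was 0.53, the S phase list had 0 of 41 called and a median of -0.10. The G2/M list moved up with the members there: 30 of 30 genes were above 0, with a median of 0.67, 15 higher at an unadjusted p under 0.05 and 2 called higher by edgeR. Replacement variants had a median of 0.40, with 2 of 11 called higher. At that stage 4.42% of all tested genes were called in either direction. The S phase and other lists were chosen with earlier results of these data known.

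The members are not part of the S phase list, and the ratio of their summed CPM to that of the S phase genes, in percent, was 29.6% ± 4.61 (SD, n = 3), 37.6% (n = 2), 38.0% ± 9.94 (n = 3) and 81.2% ± 8.48 (n = 3) from isotype stage I to IV. Under anti-IL5 it was 43.2% ± 5.42, 54.7%, 57.7% ± 6.48 and 84.4% ± 16.0. The libraries did not overlap between antibodies at stages I, II and III, where anti-IL5 was the higher, and overlapped at stage IV. These ratios combine both lists and are given as a description. The members' sum includes H1, which made up 21.4% of it at isotype stage I and 54.5% at stage IV. Core members alone summed to 1696 CPM at isotype stage I and 164 at stage IV, beside 7270 and 447 for S phase genes. Under anti-IL5 these sums were 2333 and 176, beside 6780 and 462.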

How the data were processed

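The deposited files hold raw counts of reads per gene symbol for each library; the tools that the submitters' processing notes name are STAR (version 2.6.1a) and DESeq2, with mm10 as the build. How reads were counted, with which annotation and strand setting, is not given in the sources used here. Lines naming no gene (no feature, 12.7% to 22.1% of counts, and ambiguous, 1.86% to 2.39%) were left out. CPM were computed from the remaining total, without further scaling. All 22 libraries (7161264 to 14781250 counts) entered 1 edgeR 4.0.16 quasi-likelihood fit (R 4.3.3, TMM, robust, filterByExpr) with 8 groups, 15 contrasts and 1 added later. Log2 differences and Benjamini-Hochberg adjusted p (over 12387 genes, called under 0.05) come from it. Scripts were tested on simulated data. Alternatives were RLE factors, no filter, DESeq2 1.42.0, no normalization (added after seeing the data), a replicate block and leaving out each library. Member counts at an unadjusted p or under an alternative stand without a share of all tested genes. An excess over other genes cannot be read from them. Members, lists and tests were chosen with earlier results of these data known. Values are given for the 12 most abundant members, for members called (the 3 of smallest p in each contrast and direction) and for genes chosen by name. Members outside this rule, such as Hist1h2be, Hist2h3b, Hist2h4 and those that miss a threshold, were named after their values were seen. No amino acid sequences were used here. Each library's replicate noise exceeded sampling noise, so none was merged. The labels do not say what a replicate number marks. Deviations from group means of libraries with the same number and antibody correlated at a median r of 0.113 (30 pairs, all positive, 16 over 0.1), against -0.0489 for other numbers. Among the steps compared with 3 pairs, every pair was over 0.1 for isotype stages III and IV alone. There the block gave 47 calls in place of 46, and the fit without the block was kept throughout. Steps with stage II hold 2 pairs and could not meet this rule. For isotype stage II against I the block gave more calls, and it called Hist1h1c higher at isotype stage IV than I. Whether libraries of 1 number share a source is not known, so a pairing may have been left out of the fit. PCR copies were not marked, so floors cover counting error only.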

Additional observations from a re-analysis of the deposited data

Results flagged for a closer look

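Hist1h3b, an H3 gene, was picked out because its libraries parted in opposite directions at stages I and III. At stage I the isotype libraries read 4.47, 4.71 and 5.01 CPM and the anti-IL5 libraries 12.6, 8.96 and 8.33. At stage III they read 1.68, 1.60 and 3.30 against 0.727, 0.680 and 0.159. The effect at stage III minus that at stage I was -3.06 on the log2 scale (SE 0.73, edgeR adjusted p = 0.0621, DESeq2 adjusted p = 0.00212). The edgeR test of the difference missed the threshold. The gene was picked by this opposition and the contrast was added after both effects had been seen. Neither p is therefore separate support for it. The 0.159 CPM of anti-IL5 stage III replicate 3 lies under the level of 3 counts in that library (0.239 CPM).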

How the results depend on the processing

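Member counts kept their side and stayed within 1.5 times under the alternatives run, with these exceptions. No share of all tested genes is given for the alternatives in this paragraph, so no excess over other genes can be read. Anti-IL5 against isotype at stage I gave 1 call without the filter, 2 by DESeq2 and 1 with the replicate number as a block. At stage III it gave 11 by DESeq2 and 9 without normalization. Anti-IL5 stage II against I gave 1 without the filter and 1 by DESeq2, the difference of stage IV from III 1 by DESeq2, and that of stage III from I 5 by DESeq2 and 1 without normalization. Isotype stage II against I gave 11 with a replicate block, which also called Hist1h1c higher at isotype stage IV than I (0.49, edgeR adjusted p = 0.0160). With 1 library left out, antibody calls ranged from 0 to 1 at stage I, 0 to 0 at stage II, 0 to 8 at stage III and 0 to 1 at stage IV. Isotype steps ranged from 0 to 2, 32 to 52, 39 to 49 and 54 to 54 (stage IV against I), anti-IL5 steps from 0 to 2, 48 to 53, 22 to 32 and 53 to 54, and all 4 differences from 0 to 0. On TMM-scaled sizes the summed CPM at stage IV were 407 (isotype) and 438 (anti-IL5). For stage IV against I under anti-IL5, Hist1h1c turned to -0.00371 (RLE), -0.00410 (DESeq2) and -0.34 (no normalization), and to -0.080, -0.093 and -0.00541 without anti-IL5 stage I replicate 2, stage I replicate 3 and stage IV replicate 2 (range with 1 library left out -0.093 to 0.44). For stage IV against III under anti-IL5, without stage III replicate 1 and stage IV replicate 3, Hist1h1e turned to 0.012 and 0.19 (range from -0.29) and Hist1h1d to 0.051 and 0.14 (range from -0.26). The cause was not tested. Without normalization the median of all genes moved from -0.04 to -0.46 for isotype stage IV against I and from -0.06 to -0.48 under anti-IL5. Depth limits members near 3 counts at stage IV. Sequence shared with other genes limits all but 4 members (Hist1h1a, Hist1h1b, Hist1h1t and Hist2h2be).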

Other observations

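H2A and H2B genes of the clusters often stand head to head. Among the members, 12 such pairs run away from each other from starts less than 500 bases apart in GENCODE, and in 9 pairs both neighbours were tested. Since 54 of the 55 tested members were called lower at stage IV than at stage I, all genes of these pairs among them, that count says nothing about pairs. Under isotype the 2 log2 differences of a pair lay 0.73 to 2.43 apart, with a median gap of 1.45. The widest gap was that of Hist1h2an (-4.30) and Hist1h2bp (-6.73). In Hist2h2ac and Hist2h2be the values were -3.10 and -4.55 under isotype and -3.02 and -6.38 under anti-IL5, and in Hist1h2ac and Hist1h2bc -3.12 and -1.48, and -2.91 and -2.13. From stage II to stage III under isotype the gaps were 0.02 to 0.78, with a median of 0.22. Whether the neighbours' values differed from each other was not tested, some of these genes have few counts at stage IV, and shared reads between copies may enter them.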
